A study of Mus musculus with 9 samples.

Results

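The replication-dependent histone genes were described here in the brains of 9 C57BL/6 mice. The genes were all those whose symbol begins with Hist1h, Hist2h, Hist3h or Hist4h, which gave 70 of the 38621 genes in the deposited table: 6 for histone H1, 20 for H2A, 19 for H2B, 12 for H3 and 13 for H4. In the ICH group (3 mice), intracerebral hemorrhage was modeled with a brain injection of 30 μl of autologous blood. The feb group (3 mice) had the same injection after daily gavage with febuxostat, which blocks xanthine oxidase, at 50 mg/kg over the 5 preceding days. The sham group (3 mice) received saline in place of blood, and the labels call it untreated. The dissected region and the time after the injection are not given in the sources used here for the sequenced samples. Levels were given as RPKM, the reads on a gene scaled to its exon length and to the reads counted in that mouse. Limits of this scale between genes and between mice are given below. Between 23065757 and 29538009 reads were counted per mouse, and 3 reads on 1 kb of exon corresponded to an RPKM of 0.102 to 0.1301.

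Histones H2A, H2B, H3 and H4 form the protein core around which DNA is wrapped, and H1 binds the linker DNA between the cores. Cells make most of their histones while they copy their DNA, from clustered genes without introns whose mRNAs end in a conserved stem-loop in place of a poly(A) tail, and these mRNAs are degraded when replication stops. Libraries made by removing rRNA, as here, can hold such transcripts, whereas libraries made by poly(A) selection hold few of them. Some histone genes also yield polyadenylated mRNA in cells that no longer divide, as most brain cells do.

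The stem-loop that defines these mRNAs was found in the annotated transcripts of 44 of the 70 genes, as 2 arms of 6 bases that pair without a mismatch around a loop of 4 bases, within 21 to 58 bases after the stop codon (median 31). The search fixed GG at the start, TT at the start of the loop and CC at the end. In the histone genes it kept only sites after the stop codon. The transcripts searched were those of GENCODE M21, in which 47 of the 70 genes had the same start and end as in the deposited table, and 42 of the 44 sites lay in the deposited exons. In 12 genes the deposited exons ran over 100 bases past the stem-loop, and RPKM was scaled to this length too. For genes without a site, no match says only that these letters are not in the annotated transcript after the stop codon. Letters of this kind stood anywhere in the transcripts of 86 of 21810 other protein-coding genes (0.394%). In the histone genes the stem-loop took 6 forms, which are alike in part because the search fixed some of the letters. Among them, 1 arm sequence served H1, H2A, H2B and H3 genes while the H4 genes had others. The following sites are shown because they belong to the genes on which the results below turn, with 7 bases on each side, the arms in capitals and the loop in lower case, as DNA of the coding strand in GRCm38.
Hist1h1e (chr13:23621775-23621804, minus strand): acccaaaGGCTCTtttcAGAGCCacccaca
Hist2h2aa2 (chr3:96239777-96239806, minus strand): ctaaaaaGGCTCTtttcAGAGCCacccact
Hist1h2bf (chr13:23573758-23573787, minus strand): acccaaaGGCTCTtttcAGAGCCacctacc
Hist1h2bk (chr13:22036293-22036322, plus strand): caccaaaGGCTCTtttaAGAGCCactaaac
Hist1h3b (chr13:23752813-23752842, plus strand): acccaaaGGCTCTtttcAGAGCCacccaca
Hist1h4f (chr13:23551284-23551313, minus strand): tctcaaaGGCCCTtttcAGGGCCacccact
Hist1h4b (chr13:23757359-23757388, plus strand): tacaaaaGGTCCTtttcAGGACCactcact
The form of Hist1h1e, Hist2h2aa2, Hist1h2bf and Hist1h3b was shared by 26 genes (3 H1, 10 H2A, 8 H2B and 5 H3), and that of Hist1h2bk, with another last loop base, by 6. The form of Hist1h4f was shared by 7 H4 genes and that of Hist1h4b by 2.

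The Hist1 genes (56) lay on chromosome 13, 55 of them between 21715763 and 23934851 and the pseudogene Hist1h2al apart at 51202688 to 51203065. The Hist2 genes (10) lay on chromosome 3, the Hist3 genes (3) on chromosome 11 and Hist4h4 on chromosome 6. A single exon was listed for 65 of the 70 genes, and 67 were annotated as protein-coding in GENCODE M21. Within a class the products were alike. The longest open reading frames of all 13 H4 genes encoded the same protein of 103 residues, 9 of the 18 coding H2A genes shared another of 130 residues, and the 6 H1 genes encoded 6 different proteins.

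These likenesses limit how reads could be placed. Of the 70 genes, 22 had over 50% of their stretches of 150 bases in a second gene as well, and 19 shared no such stretch. All stretches of Hist2h2aa2 also occurred in its neighbor Hist2h2aa1, and the levels of the pair were 314 and 2.20 RPKM (means of 9 mice), so their split between the copies is uncertain. The same holds for Hist1h4m and Hist1h4n, which shared 85.8% and 77.2% of their stretches and had mean levels of 17.2 and 1.86 RPKM. Exon bases of 25 of the genes were also listed for another gene, for 23 of them on the opposite strand, and reads there were counted for both. Hist2h2aa2 had a mean of 4376 reads and the antisense gene Gm20632 had 4381. Hist2h2bb had 1933 and the antisense gene Gm20628, which also overlaps Hist2h3b, had 1973. The non-coding RNA gene Gm42743, on the same strand as Hist2h2bb, shared 226 bases with it and had 1902 reads. Under 17 H2A genes lay an opposite-strand miRNA gene of 129 to 144 bases, which held a median of 96.0% of the H2A gene's reads. Strands therefore cannot be told apart in these values.

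The 10 genes with the highest levels held 71.7% of the summed RPKM of all 70 (means of 9 mice), and Hist2h2aa2 alone held 27.1%. A mean RPKM of at least 10 was found for 24 genes, between 1 and 10 for 34 and under 1 for 12. The germ cell forms Hist1h1t, Hist1h2ba and Hist1h2aa were lowest, at mean levels of 0.153, 0.0756 and 0.0116 RPKM, and Hist1h2aa, with 1 read in 1 mouse, was the only one of the 70 that failed the filter for testing. The highest gene of a class reached 314 RPKM in H2A (Hist2h2aa2), 194 in H2B (Hist2h2bb), 62.2 in H1 (Hist1h1e) and 37.2 in H4 (Hist1h4d), but only 2.37 in H3 (Hist1h3e). All 12 H3 genes together thus had less RPKM than Hist1h4d alone.

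Hist2h2aa2, an H2A gene of the Hist2 cluster, measured 396, 278 and 340 RPKM in sham, 275, 397 and 275 in ICH and 282, 318 and 269 in feb. The groups overlapped, with no order among them. Hist2h2bb, an H2B gene of the same cluster, measured 177, 151 and 172 RPKM in sham, 189, 275 and 182 in ICH and 243, 143 and 216 in feb. Every ICH value lay above the sham values, and the feb values spanned both groups. Hist2h2ac, next in the H2A class, measured 59.1, 46.1 and 50.5 RPKM in sham, 43.8, 74.1 and 39.3 in ICH and 50.9, 45.7 and 50.5 in feb. Here the highest and the lowest value were both from ICH mice.

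Among the linker histones, Hist1h1e measured 94.3, 47.2 and 78.1 RPKM in sham, 50.6, 62.5 and 52.4 in ICH and 43.3, 84.6 and 47.0 in feb. The groups overlapped, with the lowest and highest values in feb and sham. Hist1h1c, another H1 gene, measured 50.02, 53.7 and 53.1 RPKM in sham, 58.9, 71.8 and 57.5 in ICH and 48.8, 52.5 and 53.6 in feb. All ICH values were above all others. Hist1h1d measured 24.5, 35.7 and 27.1 RPKM in sham, 36.8, 65.7 and 32.8 in ICH and 19.4, 28.8 and 21.97 in feb. The ICH mice were above the feb mice but overlapped with the sham mice.

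Hist1h4d measured 36.7, 36.3 and 42.3 RPKM in sham, 39.8, 44.2 and 37.6 in ICH and 35.1, 36.2 and 26.4 in feb. Hist1h4k, another H4 gene, measured 28.1, 34.0 and 31.4 RPKM in sham, 38.6, 52.2 and 35.0 in ICH and 29.7, 31.0 and 29.6 in feb. In both H4 genes the feb mice lay below the ICH mice, and in Hist1h4k the ICH mice also lay above the sham mice. Hist1h2ab, 1 of the 9 H2A genes that share a protein, measured 20.47, 22.001 and 20.53 RPKM in sham, 27.6, 59.0 and 28.4 in ICH and 17.0, 22.7 and 17.5 in feb. Hist1h2bc measured 26.5, 27.5 and 28.9 RPKM in sham, 26.9, 32.7 and 29.2 in ICH and 17.6, 21.3 and 13.3 in feb. Hist1h2ab was highest in the ICH mice, and Hist1h2bc was lowest in the feb mice, with no overlap.

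**Figure D1:**
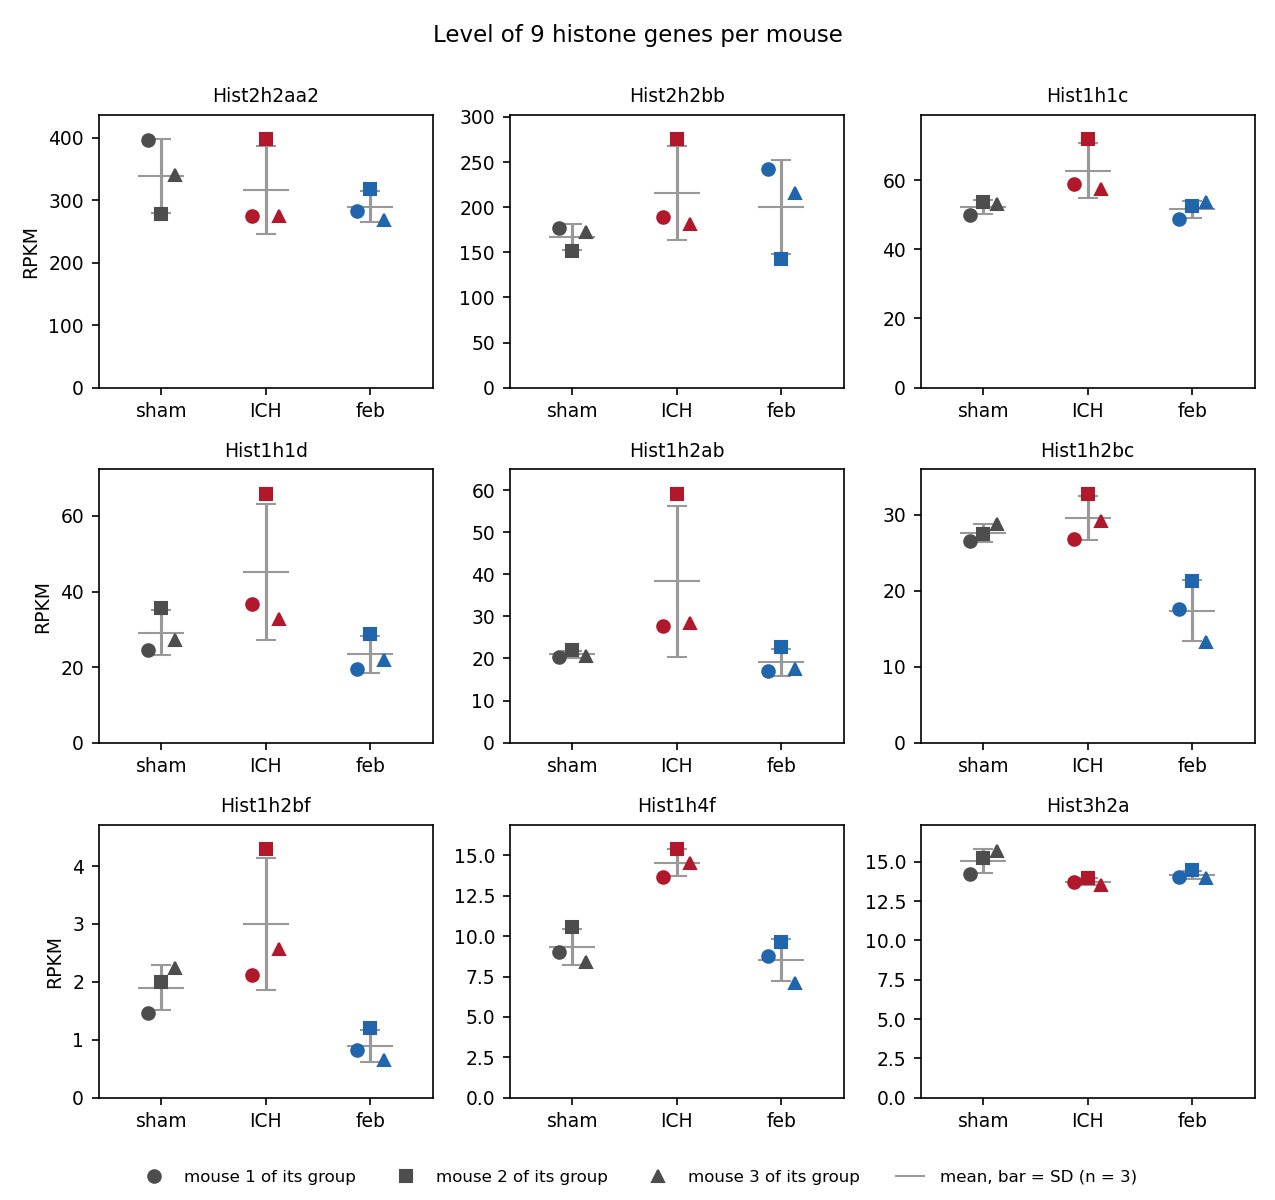
RPKM (y axis, from 0) of 9 histone genes in each mouse of the sham, ICH and feb groups (x axis); symbols mark the mouse number within a group, and the gray lines show the mean and SD of 3 mice. The ICH 2 mouse (square) is the highest of the 9 mice in 8 of the panels, narrowly so in Hist2h2aa2, and not in Hist3h2a, where the groups lie close together.

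Class sums for sham, ICH and feb were 170 ± 16.7, 186 ± 42.9 and 147 ± 29.7 RPKM for H1 (mean ± SD, n = 3 each), and 554 ± 67.1, 577 ± 168 and 489 ± 36.2 for H2A. They were 249 ± 9.77, 320 ± 72.0 and 269 ± 50.4 RPKM for H2B, 14.8 ± 1.68, 20.9 ± 8.74 and 13.1 ± 2.04 for H3, and 153 ± 6.74, 184 ± 24.5 and 137 ± 17.3 for H4. No class sum was tested. In each class the ICH 2 mouse had the highest sum of all 9 mice, and the sum of all 70 genes was 1652 RPKM in it against 1131 and 1081 in the ICH 1 and ICH 3 mice and 1004 to 1224 in the sham and feb mice. Without ICH 2 the ICH mean over all 70 genes was 0.970 times the sham mean in place of 1.13 times, and the feb mean was 0.954 times the ICH mean in place of 0.820 times. By class, the ICH over sham ratio without this mouse was 0.955 for H1, 0.866 for H2A, 1.12 for H2B, 1.07 for H3 and 1.11 for H4. The feb over ICH ratio without it was 0.910 for H1, 1.02 for H2A, 0.966 for H2B, 0.825 for H3 and 0.809 for H4, so that the order of the groups turned in H2A and, for ICH against sham, in H1. The feb over sham ratio of H2B was 1.08 with its highest gene, Hist2h2bb, and 0.835 without it.

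**Figure D2:**
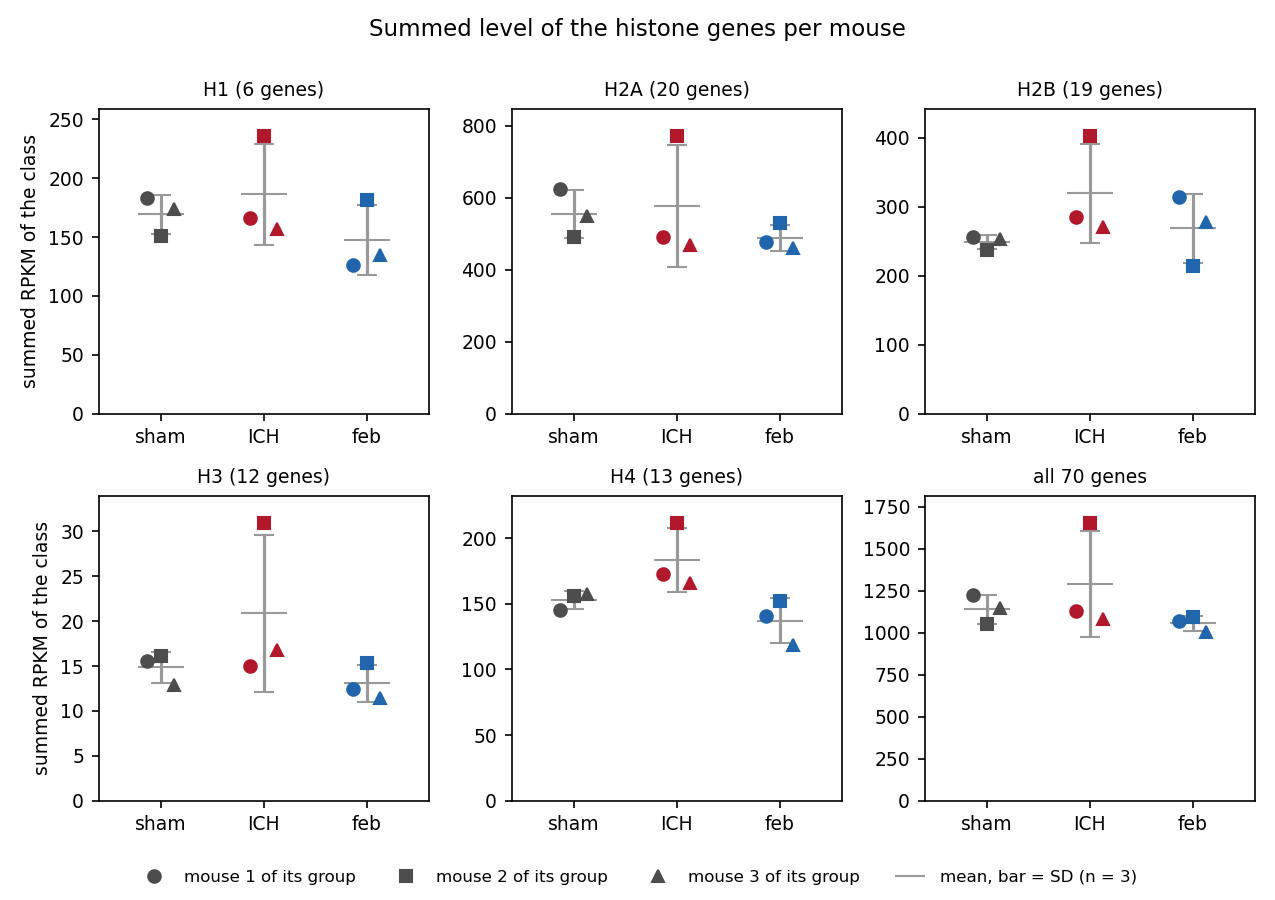
Summed RPKM (y axis, from 0) of the genes of each histone class and of all 70 genes in each mouse, by group (x axis); symbols mark the mouse number within a group, and the gray lines show the mean and SD of 3 mice. The ICH 2 mouse (square) is the highest in every panel, at 1652 for all genes, while the other 8 mice lie between 1004 and 1224.

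The comparison of ICH with sham asks what the injected blood changed. Of the 69 genes tested, 14 (20.3%) were higher in the ICH group at an unadjusted p under 0.05, beside 7.88% of all 29025 genes tested, and 0 were lower, beside 4.42%. The median log2 fold change was 0.33 for the 69 genes and 0.08 for all genes, with 55 of the 69 above 0. The 14 were 1 linker histone (Hist1h1c), the H2A genes Hist1h2ab and Hist1h2ao, the H2B genes Hist1h2br, Hist1h2bl, Hist1h2bk, Hist1h2bg and the pseudogene Hist3h2bb-ps, the H3 genes Hist1h3i and Hist2h3c1, and the H4 genes Hist1h4f, Hist1h4a, Hist1h4k and Hist1h4b. Hist1h4f (chr13:23551258-23551648, minus strand, a single exon of 391 bases) had levels of 9.01, 10.6 and 8.37 RPKM in sham and 13.7, 15.4 and 14.6 in ICH. The groups were apart, with ICH higher by 0.64 on the log2 scale (SE 0.13, adjusted p = 0.286 in limma). It was the lowest adjusted p of the 69 genes in this comparison. Of the 14, only Hist1h2bl, at 0.638 ± 0.317 RPKM in the sham group and 1.97 ± 1.12 in the ICH group (SD, n = 3 each), differed by over 2-fold, beside 1.46% of all genes that were higher by this rule, and its groups overlapped. Groups did not overlap for 12 of the 69 genes (17.4%) with ICH above sham, beside 13.2% of all genes, a share near the background.

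No histone gene passed a Benjamini-Hochberg adjusted p of 0.05 in limma or in voom on the recovered reads, where 7 were higher at an unadjusted p under 0.05 and 1 was lower, beside 6.14% and 6.76% of all genes. The count depended on the ICH 2 mouse. Without ICH 2, 7 genes were higher at an unadjusted p under 0.05, beside 5.14% of all genes, and the median was 0.08 both for the 69 genes and for all genes. Those 7 were Hist1h4f, Hist1h4a, Hist1h4k, Hist1h2ab, Hist1h2br, Hist1h2bl and Hist3h2bb-ps, all among the 14. Leaving out ICH 3 instead gave 25 genes, beside 8.46% of all genes, and leaving out sham 1 or sham 3 gave 7, beside 4.60% and 4.06%. With a fold change over 2, 2 genes were higher without ICH 1, 7 without ICH 3 and 5 without sham 2, beside 1.32%, 2.23% and 2.92% of all genes.

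ICH 2 was the highest of the 9 mice for 53 of the 69 genes (76.8%), and for 16.2% of all genes tested. Relative to the sham mean, the median of the 69 genes was 0.72 in ICH 2 on the log2 scale, 0.17 in ICH 1 and 0.09 in ICH 3. The difference from the mean of ICH 1 and ICH 3 had a median of 0.59 (log2) over the 69 genes and was above 0 for 64 of them. It was 0.78 for H1, 0.84 for H2A, 0.53 for H2B, 0.84 for H3 and 0.48 for H4, and -0.25 for the 3 Hist3 genes, for which another mouse was the highest. Hist1h1b, a linker histone gene, was at 7.86, 19.1 and 5.96 RPKM in ICH and at 3.68 to 6.30 in the other 6. Hist1h3b, an H3 gene, was at 0.922, 3.99 and 1.29 RPKM in ICH and at 0.731 to 1.42 in the others. Hist1h2af, an H2A gene, was at 14.8, 32.9 and 11.96 RPKM in ICH and at 8.48 to 13.9 in the others. In all 3 genes ICH 2 was the highest mouse by far. In Hist1h1b and Hist1h2af the ICH 1 mouse also lay above the sham and feb mice.

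Genes of cell division were high in the same mouse, and those of G2 and mitosis were raised less in ICH 1. The 22 listed genes of G2 and mitosis summed to 43.0 RPKM in ICH 2, 22.5 in ICH 1 and 14.7 in ICH 3. Their sums were 13.1 to 15.8 RPKM in sham and 13.5 to 14.7 in feb. Of 21 genes of G2 and mitosis that were tested, 21 were highest in ICH 2, with a median difference of 1.04 (log2) from the mean of the other ICH mice, as were 28 of 42 genes of DNA replication and S phase, with a median of 0.43. Mki67, a marker of dividing cells, was at 4.85, 10.8 and 2.59 RPKM in ICH and at 1.98 to 2.76 in the others, and Mcm3, a subunit of the replicative helicase, was at 1.62, 4.29 and 1.29 RPKM in ICH. Of the genes that act on histones or histone mRNA, 6 of 19 histone chaperones, 4 of 12 replication-independent histone variants and 3 of 22 factors of histone mRNA processing and turnover were highest in ICH 2, beside the 16.2% of all genes given above, with medians of 0.07, 0.07 and -0.02. Of the cell type markers, 4 of 5 microglia genes differed by over 0.5 (log2), and their sum was 77.1 RPKM in ICH 2, 40.6 and 52.2 in the other ICH mice, 35.6 to 45.7 in sham and 33.1 to 49.6 in feb. The sum of the 5 astrocyte genes was 943 RPKM in ICH 2, 448 and 513 in the other ICH mice, 416 to 510 in sham and 379 to 528 in feb, but their median difference was -0.05. Gfap, an intermediate filament gene of astrocytes, differed by 2.67 and Aqp4 by 0.63, while Aldoc, Slc1a3 and Slc1a2 were at -0.31, -0.21 and -0.05. The median difference was -0.40 for oligodendrocyte, -0.79 for neuroblast and -1.04 for erythroid markers, with 0, 1 and 0 of 5 genes above 0. The part of these cells in the histone levels was not tested, and in RNA of whole tissue a change in the number of cells of a type and a change in RNA per cell cannot be told apart.

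**Figure D3:**
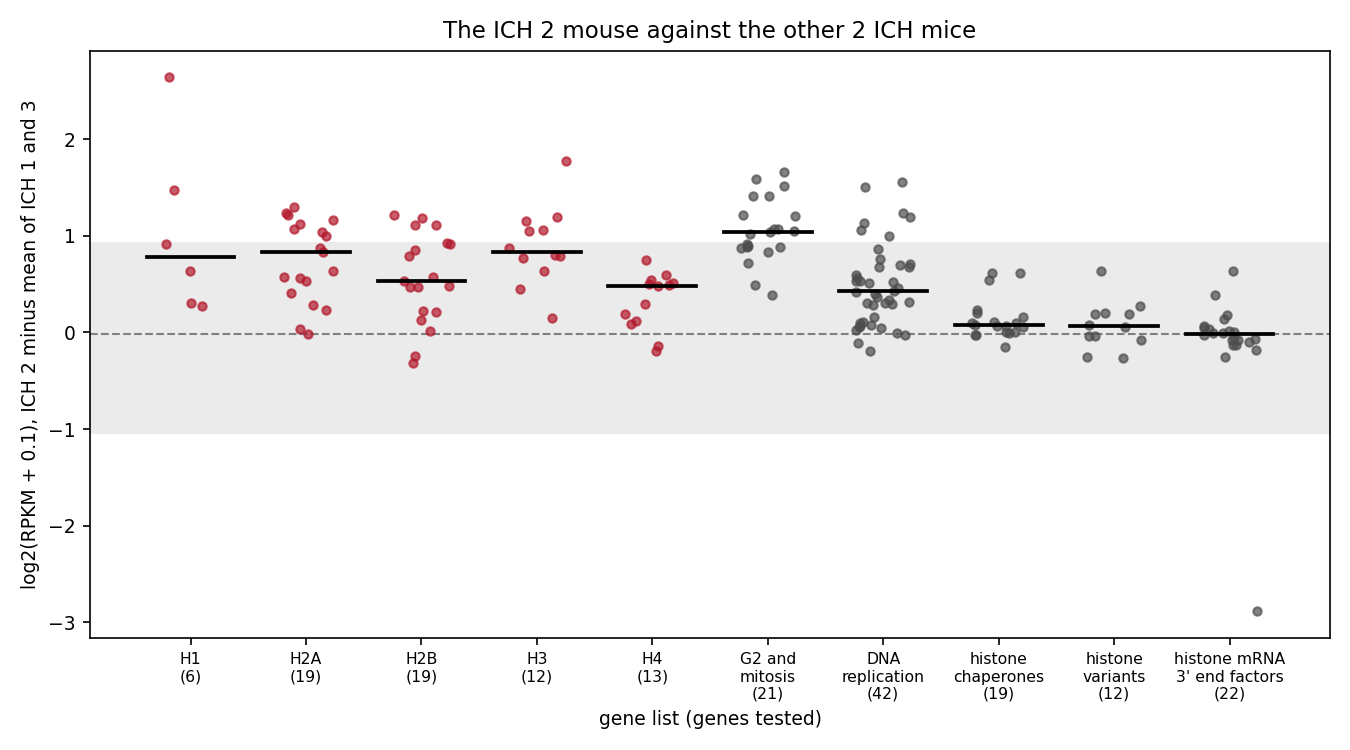
Difference in log2(RPKM + 0.1) between the ICH 2 mouse and the mean of the ICH 1 and ICH 3 mice (y axis) for each gene of the 5 histone classes (red) and of 5 related lists (gray), with list medians as black bars (x axis, number of genes tested in parentheses). The band holds 90% of all genes tested and the dashed line is their median of -0.02. The medians of the histone classes are 0.48 to 0.84, within the band, that of G2 and mitosis is 1.04, and those of the chaperones, the variants and the mRNA processing genes are 0.07, 0.07 and -0.02.

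**Figure D4:**
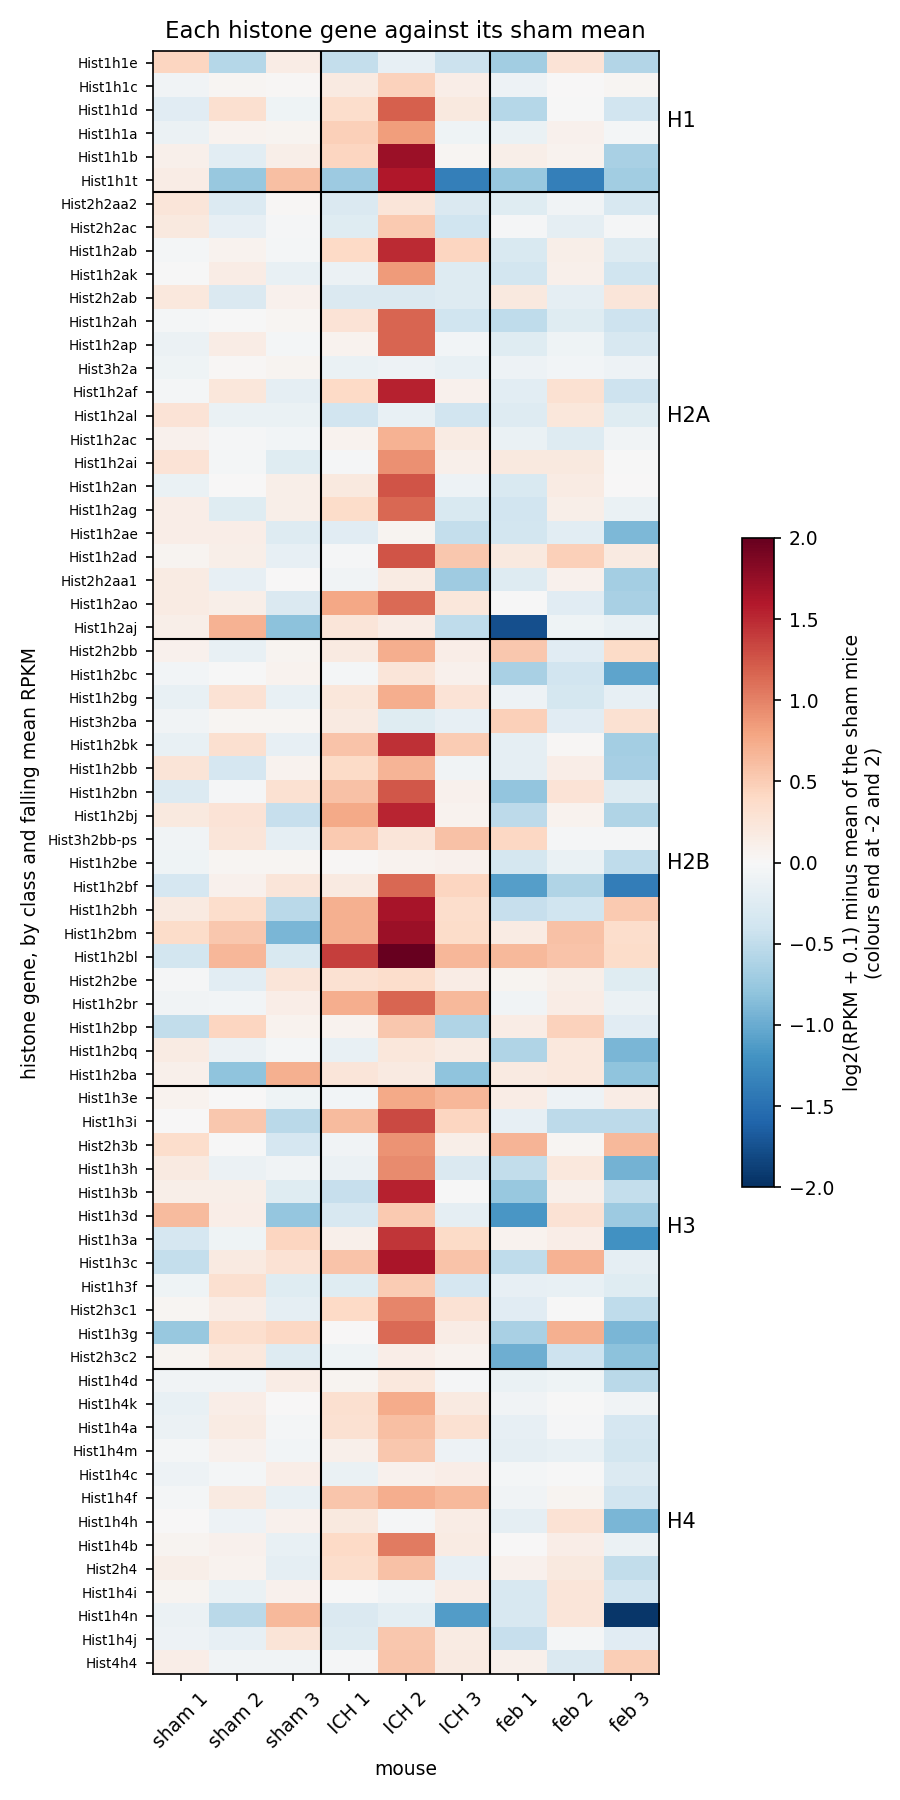
Color shows log2(RPKM + 0.1) of each of the 69 tested histone genes (rows, by class and falling mean RPKM) in each mouse (columns) minus the mean of the sham mice, with colors ending at -2 and 2. The ICH 2 column is red in most rows of every class, and the feb 1 and feb 3 columns are mostly blue, with 18 and 12 of 69 genes above the sham mean.

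Related lists were compared between ICH and sham too, and their counts stand beside the same 7.88% of all genes higher and 4.42% lower. Of 21 genes of G2 and mitosis, 6 were higher at an unadjusted p under 0.05 (Mki67, Bub1b, Kif11, Kif20a, Cenpe and Cenpf), with a median of 0.59 on the log2 scale, and of 42 genes of DNA replication 4 were higher (Rrm2, Gins2, Orc6 and Rfc5), with a median of 0.17. The variant H3f3b and the chaperone Atrx were the only ones higher of 12 and 19, and Srrt was the only 1 lower of 22 genes of histone mRNA processing. No gene of these lists passed adjustment in limma.

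The comparison of feb with ICH asks what febuxostat given before the blood changed, and it uses the same ICH mice as the comparison above. Of the 69 genes, 24 (34.8%) were lower in the feb group at an unadjusted p under 0.05, beside 6.16% of all genes, and 1 was higher, beside 4.90%. The median log2 fold change was -0.49 for the 69 genes and -0.01 for all genes, and 62 of the 69 were below 0. Groups did not overlap for 24 genes that were lower in feb, beside 10.1% of all genes. A fold change over 2 was also met by 6 of the 69 (8.70%), beside 1.05% of all genes: the H2B genes Hist1h2bf, Hist1h2bj, Hist1h2bk and Hist1h2bh, the H2A gene Hist1h2ao and the H3 gene Hist1h3i. Of these 6, Hist1h2ao, Hist1h2bk and Hist1h3i shared 91.5%, 60.9% and 52.7% of their stretches of 150 bases with other genes. The other genes of the 6 shared 10.6% to 22.3%. No histone gene passed adjustment in limma or voom. In voom, 21 were lower and 1 was higher at an unadjusted p under 0.05, beside 5.84% and 5.21% of all genes.

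By class, 2 of 6 H1 genes were lower at that threshold (Hist1h1d and Hist1h1c), 4 of 19 H2A genes (Hist1h2ab, Hist1h2ac, Hist1h2ah and Hist1h2ao), 9 of 19 H2B genes, 3 of 12 H3 genes (Hist1h3i, Hist2h3c1 and Hist2h3c2) and 6 of 13 H4 genes (Hist1h4f, Hist1h4a, Hist1h4k, Hist1h4m, Hist1h4b and Hist1h4d). The 9 H2B genes were Hist1h2bf, Hist1h2bc, Hist1h2bk, Hist1h2br, Hist1h2bg, Hist1h2be, Hist1h2bj, Hist1h2bn and Hist1h2bh. The median log2 fold change was -0.61 in H1, -0.38 in H2A, -0.57 in H2B, -0.73 in H3 and -0.37 in H4, where all 13 genes were below 0. By cluster, 52 of 55 Hist1 genes and 8 of 10 Hist2 genes were below 0, and the 3 Hist3 genes had a median of 0.04. Differences between classes or clusters were not tested.

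Hist1h4f had the lowest p, with levels of 13.7, 15.4 and 14.6 RPKM in ICH and 8.79, 9.62 and 7.10 in feb. The groups were apart, and the feb mice were in the range of the sham mice or below it. The difference was -0.78 on the log2 scale (SE 0.13, adjusted p = 0.178 in limma). Hist1h2bf (chr13:23573736-23574196, minus strand) had the largest difference, with levels of 1.47, 1.99 and 2.24 RPKM in sham, 2.13, 4.29 and 2.57 in ICH and 0.819, 1.20 and 0.658 in feb. Every feb mouse was below every mouse of the other groups, and the difference from ICH was -1.61 (SE 0.30, adjusted p = 0.205 in limma) at 7 to 52 reads per mouse. Hist1h2bc (chr13:23684199-23692488, plus strand), with its values given above, differed by -0.79 (SE 0.16, adjusted p = 0.219 in limma).

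Hist1h2bk, an H2B gene, had levels of 7.29, 13.7 and 6.98 RPKM in ICH and 4.29, 4.99 and 3.01 in feb, and its partner across a shared promoter, Hist1h2ah, had 18.5, 34.6 and 11.6 and then 10.7, 13.0 and 11.5. In Hist1h2bk the groups were apart and in Hist1h2ah they overlapped. Hist1h3i, the H3 gene with the largest difference, had levels of 2.48, 4.07 and 2.137 RPKM in ICH and 1.38, 1.06 and 1.06 in feb, a log2 difference of -1.20 (SE 0.31). Hist1h4a had levels of 20.3, 25.1 and 20.47 RPKM in ICH and 14.7, 16.3 and 13.1 in feb, a log2 difference of -0.57 (SE 0.12). In both genes the groups did not overlap. The exception in direction was Hist2h2ab, an H2A gene of the Hist2 cluster, with levels of 15.5, 15.5 and 15.8 RPKM in ICH and 21.7, 16.7 and 22.4 in feb, but 21.9, 15.5 and 20.03 in sham. Its feb mice were all above the ICH mice, and feb 3 was the highest of the 9 mice.

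Without ICH 2, 17 of the 69 genes were lower at an unadjusted p under 0.05, beside 4.14% of all genes, and all 17 were among the 24. All 24 kept their sign and 21 of them had both other ICH mice above all feb mice. This was no separate check, since the 24 were picked with these same mice and leaving out a mouse cannot make groups overlap. The median over the 69 genes moved from -0.49 to -0.25, and the number with a fold change over 2 from 6 to 1, Hist1h2bf, with a difference of -1.33 (SE 0.28), beside 0.944% of all genes. The number with a fold change over 2 was 10 without ICH 1, 14 without ICH 3 and 11 without feb 2, beside 1.04%, 1.68% and 1.40% of all genes. Hist1h4f moved from -0.78 to -0.74, Hist1h2bc from -0.79 to -0.71 and Hist1h2ab from -0.92 to -0.57. The 7 that no longer passed were Hist1h1c, Hist1h2ah, Hist1h2bh, Hist1h2bn, Hist1h4b, Hist1h4d and Hist1h4m.

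**Figure D5:**
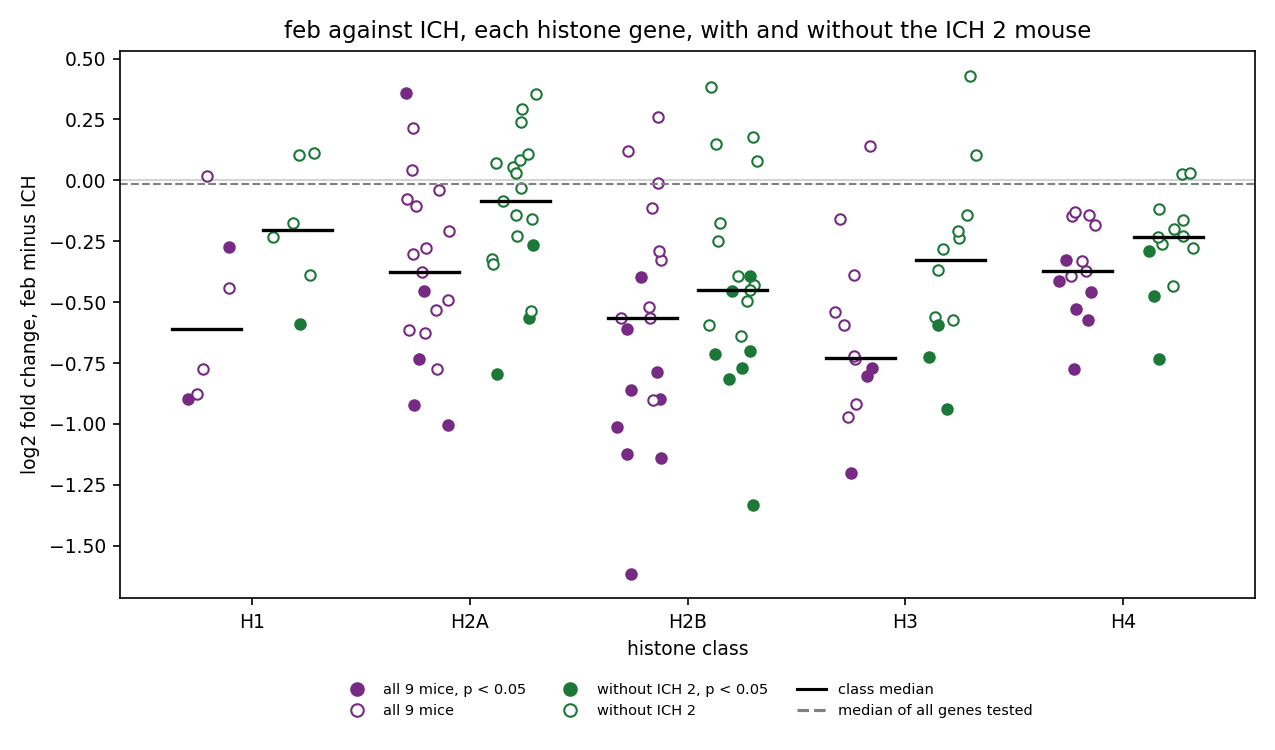
Log2 fold change of feb against ICH (y axis) for each tested gene by histone class (x axis), with all 9 mice (purple) and without the ICH 2 mouse (green); filled circles passed an unadjusted p of 0.05, black bars are class medians and the dashed line is the median of all genes tested (-0.01). The medians of every class are below 0 in both fits and closer to 0 without ICH 2.

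Related genes were given by 5 lists, whose counts stand beside the same 4.90% of all genes higher and 6.16% lower. Of 22 genes of histone mRNA processing and turnover, 1 was higher in feb than in ICH at an unadjusted p under 0.05 (Srrt, 0.36 on the log2 scale, a subunit of a complex that links the cap to RNA processing) and 0 were lower, with a median of -0.01. Slbp, the protein that binds the stem-loop, was at 2.47, 2.146 and 2.07 RPKM in ICH and 2.86, 3.12 and 2.86 in feb. The feb mice were above the ICH mice, opposite to the histone genes, and the difference of 0.39 had an unadjusted p of 0.073 in limma. Of 12 replication-independent variants, H3f3a (-0.38) and H3f3b (-0.37), both of which encode H3.3, were lower and 0 were higher. Of 19 histone chaperones, 0 passed in either direction, with a median of -0.09. Of 42 genes of DNA replication, 4 were lower (Mcm3, Mcm5, Rrm2 and Gins4) with a median of -0.15, and of 21 genes of G2 and mitosis 6 were lower (Mki67, Top2a, Kif11, Kif20a, Cenpf and Tpx2) with a median of -0.62. No gene of these 5 lists passed adjustment in limma.

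Markers of several cell types were also lower in the feb mice. The 8 choroid plexus genes summed to 365 to 1035 RPKM in sham, 458 to 967 in ICH and 30.6 to 88.4 in feb, and all 8 were lower than in ICH at an unadjusted p under 0.05. So were 4 of 5 erythroid genes, which summed to 32.3 to 40.6 RPKM in sham, 26.7 to 124 in ICH and 17.1 to 21.6 in feb, and 3 of 5 microglia genes. Neuron markers summed to 460 to 523, 467 to 522 and 447 to 494 RPKM, with 0 of 5 lower. No gene of these lists was at 0 in every mouse, and the 5 genes of blood leukocytes summed to 0.350 to 1.599 RPKM over the 9 mice. The part of these cells in the histone differences was not tested.

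The comparison of feb with sham sets febuxostat and blood together against saline, and shares its mice with both comparisons above. Of the 69 genes, 5 were lower at an unadjusted p under 0.05 (7.25%), beside 2.90% of all genes, and 0 were higher, beside 5.63%. They were Hist1h2bc, Hist1h2bf, Hist1h2be, Hist2h3c2 and Hist1h2ae, and 55 of the 69 were below 0, with a median of -0.17 beside 0.05 for all genes. Only Hist1h2bf had a fold change over 2 (-1.03 on the log2 scale, SE 0.30), beside 0.613% of all genes that were lower by this rule. Hist1h2bc, with 26.5, 27.5 and 28.9 RPKM in sham and 17.6, 21.3 and 13.3 in feb, differed by -0.69 (SE 0.16, adjusted p = 0.565 in limma). Groups were apart in both genes. None passed adjustment in limma or voom, and voom gave 4 lower at an unadjusted p under 0.05, beside 4.25% of all genes. The count of 5 was 10 without feb 2, beside 5.24% of all genes, and 3 without sham 2, feb 1 or feb 3, beside 4.29%, 1.91% and 1.51%. Without sham 2, sham 3, feb 1 or feb 3, 0 of the 69 genes had a fold change over 2. In those fits 266, 171, 145 and 183 of all 29025 genes were lower by this rule. Within the feb group the mice differed: the median of the 69 genes relative to the sham mean was -0.18 in feb 1, 0.04 in feb 2 and -0.32 in feb 3, and feb 3 was the lowest of all 9 mice for 29 of the 69 genes, beside 9.99% of all genes.

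Most H2A and H2B genes of the clusters face each other in pairs. Of the 70 genes, 14 pairs of an H2A and an H2B gene started within 1000 bases of each other on opposite strands, with 172 to 305 bases between the starts (median 273.5). In 13 pairs both genes were tested, and in 11 of them both log2 fold changes of feb against ICH were below 0, as were 62 of the 69 genes singly. The levels within a pair could be far apart: Hist2h2ac and Hist2h2be had means of 51.1 and 0.714 RPKM, and Hist1h2ac and Hist1h2bc had 9.15 and 24.9. Lengths differed too, and RPKM is scaled to exon length. Hist2h2ac and Hist2h2be held 371 and 2471 stretches of 150 bases, and Hist1h2ac and Hist1h2bc held 327 and 587.

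RefSeq promoters (GRCm38.p6) of 62 of the 70 genes were searched on both strands for 4 motifs over the 250 bases before the start. The CCAAT box (CCAAT) was found in 51 of 62 (82.3%) and in 33.8% of all 32817 promoters of that length. The TATA box (TATAAA) was found in 29 (46.8%, all promoters 12.4%). The octamer (ATTTGCAT) was found in 13 (20.97%, all promoters 1.603%). The H1 box (AAACACA) was found in 9 (14.5%, all promoters 6.25%). None of these letter strings contains another. Promoters of genes that face each other can overlap, so 1 site can be counted for both genes. The octamers of Hist1h2ae and Hist1h2bg were the same site, as were those of Hist1h2ah and Hist1h2bk and those of Hist1h2aa and Hist1h2ba. The H1 boxes of Hist1h2aa and Hist1h2ba were also the same site. By class, the H1 box was in 5 of 6 H1, 2 of 18 H2A and 2 of 16 H2B promoters and in 0 of the others, and the octamer was in 7 of 18 H2A and 6 of 16 H2B promoters and in 0 of the others. The CCAAT box was in all H1, H2A and H2B promoters, in 8 of 10 H3 and in 3 of 12 H4 promoters. The TATA box was in 4 of 6 H1, 7 of 18 H2A, 8 of 16 H2B, 4 of 10 H3 and 6 of 12 H4 promoters. Differences between classes were not tested. A match is a description of the letters and not of a bound site. The promoters of an H1, an H2B and an H4 gene are shown because they differ in these motifs, which stand in capitals on either strand, with the sequence 5′ to 3′ on the strand of the gene.
Hist1h1e (chr13:23622559-23622808, minus strand): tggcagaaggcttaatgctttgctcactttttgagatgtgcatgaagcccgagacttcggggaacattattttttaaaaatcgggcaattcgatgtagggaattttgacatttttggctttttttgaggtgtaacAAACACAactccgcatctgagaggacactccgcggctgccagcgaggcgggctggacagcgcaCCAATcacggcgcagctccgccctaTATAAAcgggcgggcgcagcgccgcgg
Hist1h2bk (chr13:22035571-22035820, plus strand): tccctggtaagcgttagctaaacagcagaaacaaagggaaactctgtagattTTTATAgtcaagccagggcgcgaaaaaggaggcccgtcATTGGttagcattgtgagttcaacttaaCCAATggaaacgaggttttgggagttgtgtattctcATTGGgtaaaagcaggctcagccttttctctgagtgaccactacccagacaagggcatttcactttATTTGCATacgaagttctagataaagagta
Hist1h4f (chr13:23551669-23551918, minus strand): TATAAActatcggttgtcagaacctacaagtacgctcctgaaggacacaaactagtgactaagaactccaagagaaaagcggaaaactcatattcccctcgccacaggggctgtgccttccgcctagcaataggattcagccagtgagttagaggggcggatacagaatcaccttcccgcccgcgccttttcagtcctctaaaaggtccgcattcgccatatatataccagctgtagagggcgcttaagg
Hist1h1e held the H1 box, the CCAAT box and the TATA box, Hist1h2bk held 3 CCAAT boxes, a TATA box on the opposite strand and the octamer near the start, and Hist1h4f held only the TATA box letters at the far end of the stretch. Hist1h2bk and Hist1h4f, with different motifs, were both lower in feb than in ICH at an unadjusted p under 0.05. The difference for Hist1h1e was 0.02 on the log2 scale (SE 0.30). For Hist1h1d, which held the same kinds of motif as Hist1h1e, it was -0.90 (SE 0.27). A relation of the motifs to these differences was not tested.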

How the data were processed

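RNA of mouse brain was depleted of rRNA and made into libraries with UMIs. According to the study's methods and the labels, the authors used Trimmomatic (version 0.36) for trimming, merged reads of 1 UMI into a consensus, mapped them to GRCm38 and counted exon reads with featureCounts (Subread 1.5.1). They deposited RPKM values, 1 column per mouse. The annotation release and the use of strand in counting are not given in the sources used here. Groups came from the labels, and p-values measure only the spread between these samples.

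The 29025 genes that reached 0.1 RPKM in 3 or more of the 9 mice were fitted jointly in limma (version 3.58.1 under R 4.3.3, moderated with a mean trend) on log2(RPKM + 0.1), a scale that understates changes of low genes. Calls used the study's rule, a fold change over 2 with an unadjusted p under 0.05. Adjustment followed Benjamini-Hochberg across all genes tested. Whole reads (100% of values within 0.1 of a whole number) were recovered for voom. With 3 mice against 3, an exact permutation test of 1 gene cannot go below 0.1 (two-sided). The script was tested on simulated data. Named genes were those with a mean RPKM of at least 1 or an unadjusted p under 0.05 in any comparison, and the highest of each class, plus genes of 5 fixed lists and cell type markers. Hist1h1t, Hist1h2ba, Hist1h2aa and Hist2h2be fall outside this rule and were named after their values were seen. The histone genes and the lists were chosen with earlier results of these data known. Stem-loops and shared stretches were searched in GENCODE M21 transcripts. Tables were made with Python 3.11.15. Alternatives were other pseudocounts, filters, scalings and fits, voom, a replicate block and leaving out each mouse.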

Additional observations from a re-analysis of the deposited data

How the results depend on the processing

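Of the 44 log2 fold changes past an unadjusted p of 0.05, none changed sign under any alternative run (other pseudocounts, filters, scalings, fits and each mouse left out), and 21 lost the threshold under at least 1. The alternatives reuse the mice in which the 44 were picked, so the kept signs are no separate check. With a fold change over 2, 1, 6 and 1 genes were called in ICH against sham, feb against ICH and feb against sham. A pseudocount of 1 gave 0, 1 and 0. Over all 29025 genes, those higher in ICH than in sham by this rule also fell, from 423 to 75. Those lower in feb fell from 305 to 54 against ICH and from 178 to 20 against sham. A pseudocount of 0.01 gave 2 in ICH against sham, where 509 of all genes were higher by this rule. P-values without the fold change gave 14, 25 and 5, beside the shares of all genes given above. The feb over sham ratio of the H2B sum went from 1.08 to 0.835 without its highest gene. The 14 genes higher in ICH than in sham became 5 with equal medians, 9 with quantile normalization and 7 with voom, beside 4.08%, 5.45% and 6.14% of all genes and 7.88% before, and equal medians moved the median of all genes from 0.05 to -0.05 in feb against sham. Leaving out 1 mouse gave 1 to 7, 1 to 14 and 0 to 1 calls, 7 to 25 genes higher in ICH than in sham, 17 to 34 lower in feb than in ICH and 3 to 10 lower in feb than in sham. The 34 were found without ICH 3, beside 6.59% of all genes.

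The labels number the mice of each group 1 to 3, with nothing else tying equal numbers together. Over all genes tested, deviations of same-numbered mice from their group means had correlations of -0.127 to 0.0194. These correlations cannot show whether the numbers pair the mice in the histone genes alone. There the median relative to the sham mean was highest in mouse 2 and lowest in mouse 3 of every group, and a pairing was not tested. With the replicate block, 20 histone genes were higher and 1 was lower in ICH than in sham, beside 5.99% and 3.55% of all genes. In feb, 30 were lower and 1 higher than in ICH, beside 4.82% and 4.34%, and 5 were lower than in sham, beside 2.04%.

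With 3 mice per group, depth limited mainly the low genes: 54 of the 70 had at least 10 reads in every mouse.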
